A study of Mus musculus with 8 samples.

Results

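The comparison described here sets organoids with BrafV600E, grown in Base medium, against organoids of the same line that carry an empty vector, by DNA methylation in 200 bp tiles of the genome. Every tile that the authors' deposited tables list for this comparison was taken, in organoid line 1 and in organoid line 3. That gave 15305 tiles in line 1 and 29949 in line 3, or 39320 distinct tiles of the 53375 that all 4 comparisons of the series list. It uses 4 of the 8 libraries, 1 per group and line, and the lines are its only replicates. Listed tiles have a q-value no higher than 0.01 and a difference of 20 percentage points or more, so the listing itself is the authors' call and sizes start at that limit. Without read counts the depth of a tile is unknown, and no interval can be given for one.

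All organoids came from crypts of the first 2.5 cm of the proximal colon of male mice about 40 days old and were established in a medium with Wnt3a, R-spondin, Noggin and EGF. The mice were heterozygous for a Braf allele that encodes BrafV600E once Cre has removed a stop cassette (Braf+/LSL), so all 4 libraries share that genotype at the start. In the BrafV600E group a lentivirus delivered Cre; the organoids are labelled with 5 months of culture, were selected for growth in Base medium, which lacks stem-cell niche factors, and spent the last 3 weeks in it. The empty-vector (EV) group received the lentiviral backbone without Cre, was also cultured for 5 months, and spent its last 3 weeks in full medium. Cre in a lentivirus acts in whichever cells it enters, with no cell type chosen by a promoter named in the labels. The oncogene, Cre itself and the medium change together and cannot be told apart here. Nothing in the labels says whether a line is a clone or how many animals it came from. The source name of the line 1 BrafV600E library gives line 3 while its title gives line 1, and the title was followed. If that library belonged to the other line, the line 1 values below would compare different lines.

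Cytosine methylation at CpG sites is copied at each cell division, and dense methylation over the CpG-rich start of a gene generally goes with a silent gene. Human colorectal tumours with BRAF V600E often carry the CpG island methylator phenotype, in which many CpG-rich gene starts become methylated together, and the mouse proximal colon is used to study that route. Reduced representation bisulfite sequencing reads short fragments that begin and end at CCGG sites, and therefore samples CpG-rich DNA far more densely than the rest of the genome.

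The sequences below show what was measured at 6 gene starts, chosen after their values were seen as examples of starts that gained methylation in both lines, lost it in both, or moved in opposite directions. Each is 300 bases of the mouse RefSeq build GRCm38.p6, from 250 bases before to 50 bases after the annotated start, written 5′ to 3′ on the gene's strand with CpG sites in capitals. Kcnj10, an inward rectifier potassium channel, lies at chr1:172340960-172341259 on the plus strand. Foxl2, a forkhead transcription factor of the ovary, lies at chr9:98955357-98955656 on the plus strand. Zfp422, a zinc finger gene, lies at chr6:116628652-116628951 on the minus strand. These 3 gained methylation in both lines.
Kcnj10: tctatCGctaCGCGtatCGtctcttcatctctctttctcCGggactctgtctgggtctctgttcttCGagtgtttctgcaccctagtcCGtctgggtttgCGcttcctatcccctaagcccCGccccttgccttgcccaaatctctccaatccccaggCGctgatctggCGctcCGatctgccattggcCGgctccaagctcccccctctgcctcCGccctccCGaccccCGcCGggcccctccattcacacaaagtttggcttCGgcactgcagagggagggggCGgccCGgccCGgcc
Foxl2: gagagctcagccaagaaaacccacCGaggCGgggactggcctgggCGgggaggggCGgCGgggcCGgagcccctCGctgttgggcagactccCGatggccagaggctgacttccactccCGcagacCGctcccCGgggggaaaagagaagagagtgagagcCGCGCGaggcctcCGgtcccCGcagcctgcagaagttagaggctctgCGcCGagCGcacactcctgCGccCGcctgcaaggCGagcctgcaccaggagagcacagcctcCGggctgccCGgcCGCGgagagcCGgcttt
Zfp422: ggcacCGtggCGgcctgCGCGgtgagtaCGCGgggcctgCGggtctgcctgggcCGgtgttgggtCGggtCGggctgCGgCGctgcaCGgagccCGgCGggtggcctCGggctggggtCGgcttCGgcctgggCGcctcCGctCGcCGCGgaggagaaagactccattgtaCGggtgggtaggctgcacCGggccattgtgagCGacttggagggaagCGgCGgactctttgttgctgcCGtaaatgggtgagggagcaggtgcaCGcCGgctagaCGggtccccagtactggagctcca
Ranbp17, which encodes a nuclear transport receptor, lies at chr11:33513704-33514003 on the minus strand and lost methylation in both lines.
Ranbp17: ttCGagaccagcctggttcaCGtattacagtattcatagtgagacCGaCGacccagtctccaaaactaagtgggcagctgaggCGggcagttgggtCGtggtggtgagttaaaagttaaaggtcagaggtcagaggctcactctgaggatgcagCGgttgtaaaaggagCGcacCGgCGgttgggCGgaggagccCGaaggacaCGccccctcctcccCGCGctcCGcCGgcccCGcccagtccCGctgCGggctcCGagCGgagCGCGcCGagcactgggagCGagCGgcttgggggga
Flot2, which encodes the membrane scaffold protein flotillin-2, lies at chr11:78037681-78037980 on the plus strand, and Pdzrn3, a ubiquitin ligase gene, at chr6:101377848-101378147 on the minus strand. Both gained methylation in line 1 and lost it in line 3.
Flot2: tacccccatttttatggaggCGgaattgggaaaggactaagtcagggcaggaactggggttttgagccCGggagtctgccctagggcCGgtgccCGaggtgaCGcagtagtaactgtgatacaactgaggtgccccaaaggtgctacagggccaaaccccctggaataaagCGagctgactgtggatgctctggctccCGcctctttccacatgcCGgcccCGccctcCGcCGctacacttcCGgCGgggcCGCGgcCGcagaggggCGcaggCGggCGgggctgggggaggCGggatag
Pdzrn3: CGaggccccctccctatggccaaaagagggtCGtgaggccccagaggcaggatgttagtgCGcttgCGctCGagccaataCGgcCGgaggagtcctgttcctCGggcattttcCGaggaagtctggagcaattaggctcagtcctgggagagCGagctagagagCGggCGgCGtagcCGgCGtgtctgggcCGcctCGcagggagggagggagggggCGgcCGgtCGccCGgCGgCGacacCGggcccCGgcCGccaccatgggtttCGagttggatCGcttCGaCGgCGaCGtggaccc
Tiles listed in both lines covered all 300 bases of the Zfp422, Flot2 and Pdzrn3 sequences, 297 of Ranbp17 and 256 of Foxl2, but only 59 bases, at the start site end, of Kcnj10. The 6 hold between 20 CpG sites (Flot2) and 32 (Zfp422 and Pdzrn3), against a median of 13 over the 21267 RefSeq promoters examined. Gaining, losing and opposite starts thus all occur among CpG-dense sequences. In the authors' deposited tables the tiles over these 300 bases averaged 78.8 points in line 1 and 79.6 in line 3 at Kcnj10, 57.6 and 67.2 at Zfp422, and -64.7 and -91.5 at Ranbp17. They averaged 56.8 (3 tiles) and 41.5 (2 tiles) at Foxl2, 66.9 and -56.04 at Flot2 and 44.0 and -45.6 at Pdzrn3.

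The balance of gains and losses was opposite in the lines. In line 1, 10332 tiles gained and 4973 lost methylation, so 67.5% of listed tiles gained (exact Clopper-Pearson 95% interval 66.8 to 68.2, which covers counting error only). In line 3, 12089 gained and 17860 lost, so 40.4% gained (39.8 to 40.9). The lines differed mainly in how many tiles lost methylation. This held along the genome: over the 19 autosomes and the X chromosome the share gained ran from 62.0% (chromosome 16) to 71.5% (chromosome 7) in line 1 and from 36.2% (chromosome 7) to 49.1% (chromosome 3) in line 3. No chromosome of line 1 fell within the range of line 3, and chromosome 7 was the highest in line 1 and the lowest in line 3.

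The listed differences were large. The middle 50% of gains lay between 31.4 and 57.9 points in line 1 and between 31.3 and 62.2 in line 3, and the middle 50% of losses between -60.0 and -32.1 and between -63.3 and -33.3. Differences of at least 80 points made up 7.19% of gains and 7.80% of losses in line 1, and 10.1% and 9.88% in line 3. Just inside the authors' limit, at under 22 points, lay 392 gains and 204 losses in line 1 and 526 gains and 580 losses in line 3. Levels themselves were not used here, but a difference bounds them: a tile that gained at least 80 points was at most 20% methylated in the control, and one that lost at least 80 was at least 80% methylated there. By that arithmetic 743 tiles of line 1 and 1223 of line 3 went from low to high methylation, and 388 and 1764 from high to low.

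Of the 39320 distinct tiles, 5934 were listed in both lines. Among them 2994 gained in both, 1389 lost in both, 1122 rose in line 1 but fell in line 3, and 429 went the other way. Where a tile gained in both lines, its sizes were similar, with medians of 45.4 and 43.3 points and a median gap of 13.2 points between the lines. Where it lost in both, the medians were -43.9 and -46.1 points and the median gap 12.8. Across the 2994 shared gains the sizes had a Pearson r of 0.442 and a Spearman rho of 0.40, and across the 1389 shared losses 0.390 and 0.390. These are descriptions across tiles, which are not independent and all start at the 20-point limit.

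**Figure D1:**
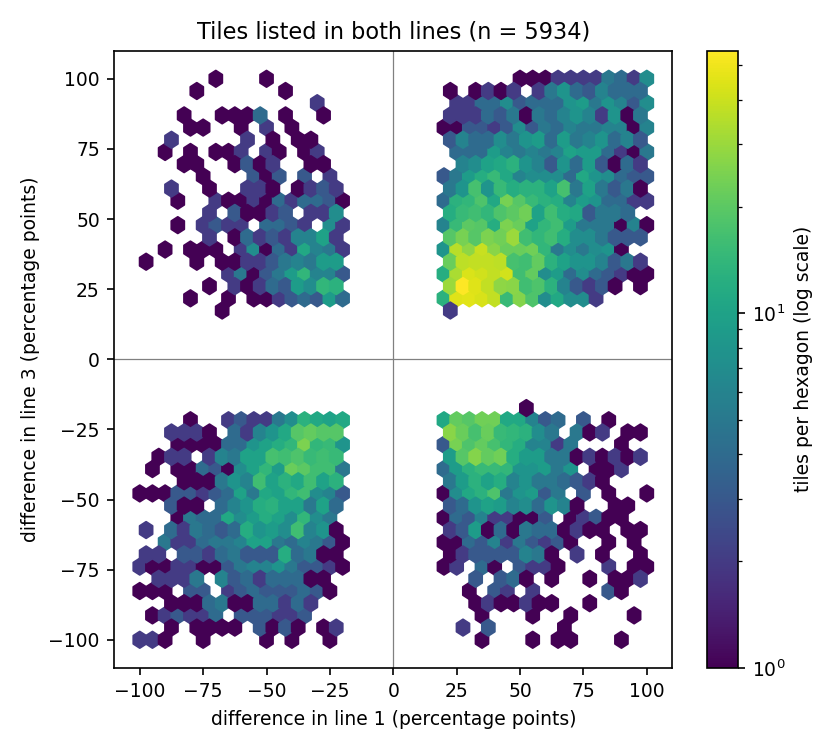
Methylation difference of each tile listed in both lines, line 1 on the horizontal and line 3 on the vertical axis, in percentage points; colour gives the number of tiles per hexagon on a log scale. The upper right holds the 2994 tiles gained in both lines and the lower left the 1389 lost in both, while the lower right (1122) is fuller than the upper left (429).

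The larger the difference, the more often the lines moved together. Among tiles whose smaller difference was 20 to 30 points, 68.3% had the same direction in both lines (n = 2060). The share was 77.3% at 40 to 50 points (n = 976), 88.3% at 60 to 70 (n = 324) and 94.7% at 80 points or more (n = 131; exact 95% interval 89.3 to 97.8). At the far end, 104 tiles gained at least 80 points in both lines and 20 lost at least 80 in both. Listing in the other line was least common for the losses of line 3: 14.1% of them were listed at all in line 1, and 7.78% were listed there as losses. Of the gains of line 1, 29.0% were also gains in line 3. A tile missing from a table may have been under the limits or not covered.

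Tiles of opposite direction carried a further piece of information about the controls. Where a tile gained in one line and lost in the other and the sizes summed to more than 100 points, the controls of the lines must themselves have differed at that tile. This applied to 394 of the 1551 opposite tiles, or 25.4%, of which 280 gained in line 1 and lost in line 3. At these 394 tiles the empty-vector libraries differed by at least 18.6 points in the median and by at least 88.9 points at the most. At the other opposite tiles the differences set no such bound.

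Gains were more frequent at gene starts than elsewhere, in both lines. A start window here is 1 kb on either side of an annotated start, for the 17495 genes whose strand the RefSeq promoter table gives, and 1 kb on either side of both annotated ends for the other 4397. In line 1, 78.7% of 4744 tiles in these windows gained, against 66.5% of 5795 tiles elsewhere in genes, 62.2% of 2972 within 50 kb of a gene and 49.7% of 1789 farther away. In line 3 the shares in the same order were 64.0% of 5893, 38.6% of 11786, 37.4% of 6872 and 22.1% of 5377. Most listed tiles of line 3 therefore lost methylation, while most of those at its gene starts gained it. The differences at starts were smaller in size, with a median gain of 39.4 points in line 1 and 38.2 in line 3.

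By distance from the nearest start, line 3 showed a rise towards the start and line 1 a nearly flat profile. In line 3, 65.7% of tiles within 500 bp downstream of a start gained, against 43.8 to 52.2% in the bins more than 2 kb upstream. In line 1 every bin of 500 bp out to 5 kb lay between 70.2 and 86.7%. Tiles listed in both lines followed the same order: the share that gained in both was 63.0% at gene starts, 49.5% elsewhere in genes, 46.4% within 50 kb and 26.4% beyond. The share with the same direction in both lines moved much less across these positions, between 70.8 and 75.3%.

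**Figure D2:**
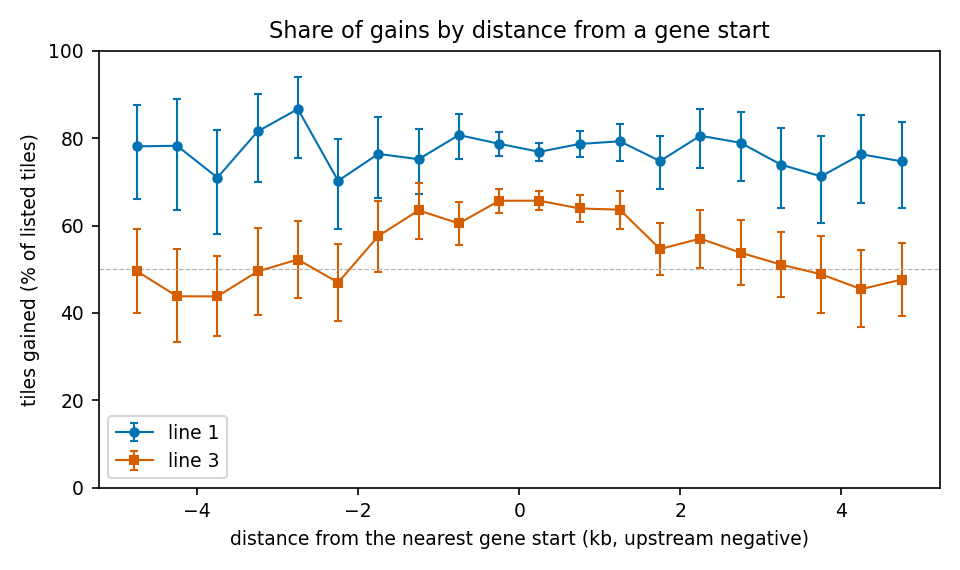
Share of listed tiles that gained methylation by distance from the nearest gene start, in bins of 500 bp (kb, upstream negative); points are line 1 or line 3, bars are exact 95% intervals for counting error. Line 1 stays between 70.2 and 86.7% throughout, and line 3 climbs from 43.8% upstream to 65.7% next to the start.

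Among the 300 bp RefSeq promoters, those that gained in both lines were CpG-dense. The 338 promoters that overlapped a gained tile, by at least 1 base, in both lines and no lost tile had a median of 24 CpG sites, the 43 lost in both a median of 18, and the 145 opposite ones a median of 21. All 1957 promoters listed in either line had a median of 21, against 13 over all 21267. The assay reads fragments between CCGG sites, and 94.0% of listed promoters held at least 1 CCGG (the letters CCGG, the same on both strands) against 62.2% of all promoters, so CpG density and coverage move together here and their parts were not tested. Within listed promoters the density still went with direction in line 3: 68.8% gained where CpG density was high, 67.1% where it was intermediate and 53.3% where it was low. In line 1 the shares were 76.1, 76.5 and 71.8%. High means an observed to expected CpG ratio of at least 0.75 with at least 55% GC, and low a ratio under 0.48.

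Gains also came in longer runs than losses. Which neighbouring tiles were covered is unknown, and gains lay more often at gene starts (36.2% of gains and 20.3% of losses in line 1, 31.2 and 11.9% in line 3). The part of coverage in run length was not tested. Tiles of 1 direction within 500 bp of each other were joined, and 158 runs of at least 5 gained tiles were found in line 1 and 152 in line 3, against 12 and 25 runs of lost tiles. Of the long gained runs, 75.3% in line 1 and 74.3% in line 3 overlapped a gained run of the other line. That other run could be a single tile, as were 78.8% of all gained runs in line 1 and 81.3% in line 3. Of the long lost runs 8 of 12 in line 1 overlapped a lost run, of any length, in the other line, but only 8 of 25 in line 3. The longest runs present in both lines, counted by their tiles, included those of Tmem132e, Cyp26b1 and Sim2. At Tmem132e, a membrane protein gene, chr11:82386801-82390000 held 8 gained tiles averaging 46.0 points in line 1 and 11 averaging 45.0 in line 3. At Cyp26b1, which breaks down retinoic acid, chr6:84583601-84586200 held 7 tiles averaging 59.9 points and 10 averaging 60.8. Sim2, a transcription factor of neural development, had 7 tiles averaging 51.9 points and 10 averaging 49.4. The line means were closer there than at Tmem200b, whose run held 8 tiles averaging 49.8 points and 9 averaging 41.8, or at Foxl2, with 8 averaging 42.2 and 9 averaging 46.3.

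Some long runs lay only or mostly in 1 line. Fzd10, a Wnt receptor gene, had 10 gained tiles averaging 75.01 points in line 3, from 49.3 to 94.96, and no gained tile there in line 1, where its window held a single tile at -20.5. Adgrl2, an adhesion receptor gene, had the longest run of all, 14 tiles averaging 66.3 points in line 3, with 1 tile at 43.5 in line 1. Kcnn2, a calcium-activated potassium channel gene, had 12 gained tiles averaging 60.7 points in line 1 and none in line 3. Prdm16, a zinc finger regulator of cell identity, gained 43.7 points over a run of 9 tiles in line 3 and was listed in line 1 with 1 tile at -67.8. The lines shared no tile in the start windows of Fzd10 and Prdm16. Among losses, Qk, which encodes the RNA-binding protein quaking, had 9 tiles averaging -83.4 points in line 3 and 2 averaging -36.4 in line 1. Line 1 also gained at 2 tiles of the Qk start window, 43.0 and 71.2 points, so Qk had both directions there. The first of these, from chr17:10320001, was at -26.4 points in line 3. These genes were singled out after their values were seen.

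Each of 21892 genes was then called gained in a line when its window held at least 1 gained and no lost tile, lost in the reverse case, and mixed when it held both. Of these, 4561 had a listed tile in at least 1 line. In both lines 808 genes gained, which is 3.69% of all genes, 142 lost (0.649%), and 432 were called in opposite directions (1.97%). Of the opposite genes, 303 gained in line 1 while losing in line 3, and 129 went the other way. An opposite call needs no tile listed in both lines, so it can rest on different tiles. The same tile was listed in both lines in 627 of the 808 gained genes and 110 of the 142 lost ones. With at least 2 tiles asked for in each line, 294 genes gained in both and 25 lost in both, so most of these genes rest on a single tile in at least 1 line. For the 4397 genes with windows at both annotated ends, a call can rest on either end and need not mark the start.

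The 12 genes with the largest gains, by the smaller of the line means, were taken from those with at least 2 gained tiles in each line. Cdo1, one of them, encodes cysteine dioxygenase, an enzyme of cysteine breakdown whose start is often methylated in human carcinomas. Its 5 tiles in line 1 lay between 85.3 and 100 points, and its 7 tiles in line 3 between 66.9 and 94.5, in the authors' deposited tables. Its controls were thus at most 14.7% methylated at every listed tile of line 1 and at most 33.1% in line 3. Trpm6, a magnesium channel of the colon and kidney, gained 88.8, 85.7 and 70 points at 3 tiles from chr19:18749801 in line 1, and 96.4, 98.0 and 95.2 at the same tiles in line 3. Its line 3 control was at most 4.76% methylated over these tiles, and the BrafV600E library at least 95.2%. Foxp1, a forkhead transcription factor, had 2 tiles from chr6:99520401 at 85.1 and 84.8 points in line 1 and at 85.4 and 86.6 in line 3. Line 3 had 2 more Foxp1 tiles, at 100 and 93.3 points, at another annotated start.

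Hnf4a, a nuclear receptor that maintains intestinal epithelial identity, gained 77.3 and 88.5 points at 2 tiles in line 1, and 73.9 and 84.8 at the same tiles in line 3. These tiles start at chr2:163547201 and chr2:163547601, beside the downstream one of the annotated starts, and no tile was listed at the start farther upstream. Nfix, a transcription factor gene, averaged 81.3 points at 3 tiles of line 1 and 87.4 at 4 tiles of line 3. Slc2a13, a myo-inositol transporter, gained 73.1 points over 4 tiles and 77.9 over 5. Tmem30b, which encodes a subunit of lipid flippases, gained 71.99 and 75.6 points over 5 tiles in each line, with tiles from 26.9 to 97.8 in line 1 and from 36.0 to 97.9 in line 3. Vps37b, Klhl22, Tbc1d1 and Fam217b were also among the 12, with line means between 65.4 and 89.0 points. The Fam217b tiles also lie in the window of Ppp1r3d. Vps37b has windows at both annotated ends, and its tiles lay at the lower-numbered end.

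The 10 genes with the largest losses, again by the smaller line mean, needed only 1 tile in each line and 1 tile shared. Aox1, an aldehyde oxidase of drug and retinoid metabolism, lost most, with tiles at -100 and -85.7 points in line 1 and at -100 and -90.0 in line 3, from chr1:58030001. The first Aox1 tile was therefore fully methylated in both controls and unmethylated in both BrafV600E libraries. Ranbp17 had 4 tiles at -48.4, -60.0, -60.4 and -69.0 points in line 1 and at -89.2, -76.1, -92.0 and -91.0 in line 3. Every one of these Ranbp17 tiles was larger in line 3. Rarg, a retinoic acid receptor, lost at 2 tiles, -88.2 and -67.2 points in line 1 and -93.3 and -44.7 in line 3. Ppp1r18, which encodes a regulatory subunit of protein phosphatase 1, averaged -78.3 points over 4 tiles and -66.3 over 3. Slc25a35, a mitochondrial carrier, averaged -83.0 and -72.8 points over 2 tiles in each line. Entpd3 (-88.9 and -72.9), Anxa6 (-75 and -100) and Ap1m1 (-64.1 and -66.4) rest on 1 tile in each line, and Atxn7l1 and Bmt2 on 1 or 2.

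The 6 genes named next had the largest opposite differences among genes with at least 2 tiles in each line. Flot2 gained at all 5 of its tiles in line 1, from 52.7 to 81.8 points, and lost at the same 5 tiles in line 3, from -32.8 to -68.0. At 3 of these 5 tiles the sizes sum to more than 100, so the empty-vector libraries of the lines differed there, by at least 49.1 points at the most. Dnah7b, a dynein heavy chain gene, had tiles at -85.7 and -79.3 points in line 1 and at 60.6 and 70.2 at the same positions in line 3, so its controls differed by at least 46.3 points at both. Nos3, the endothelial nitric oxide synthase, averaged -59.3 and 58.7 points at its higher-numbered end. Pdzrn3 averaged 50.8 and -50.6 points, and Acot6, an acyl-CoA thioesterase, 88.1 and -68.3, the last without a tile listed in both lines.

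**Figure D3:**
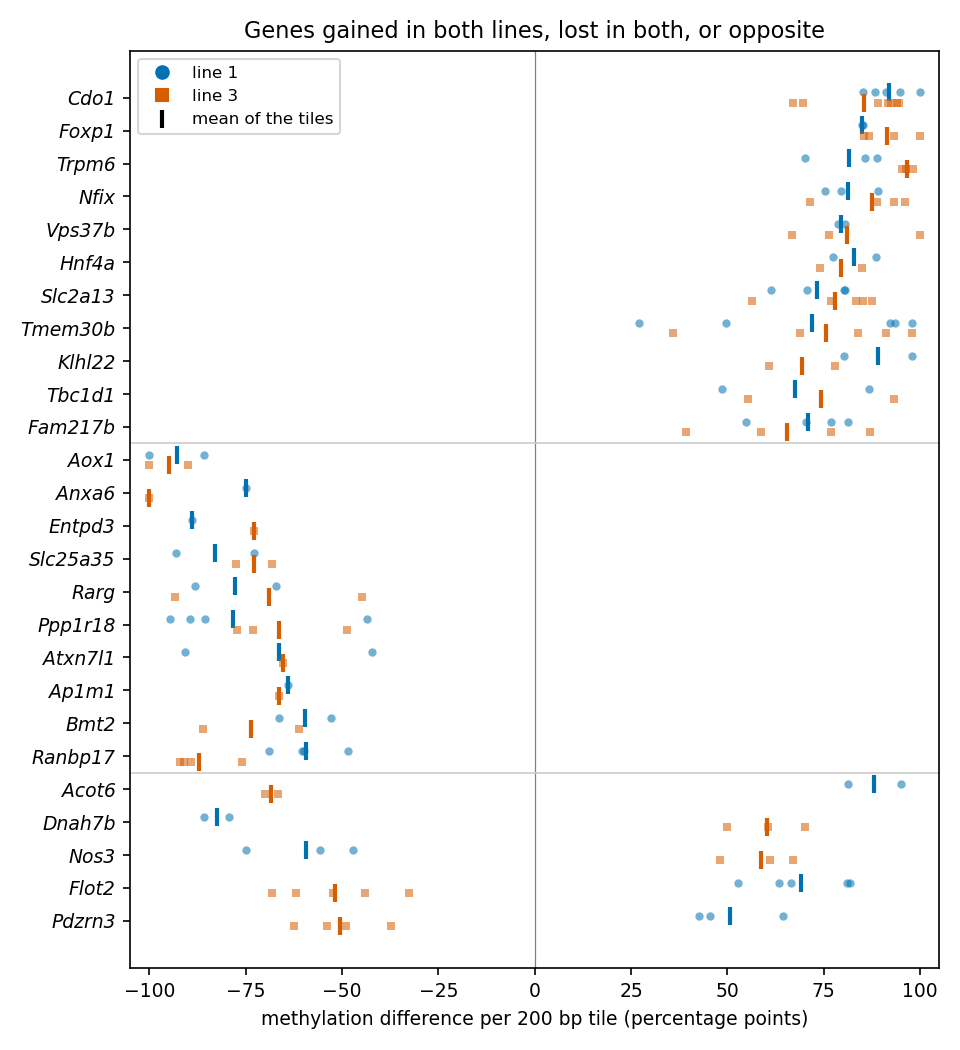
Methylation difference in percentage points at every listed tile of 11 of the most gained, the 10 most lost and 5 of the most opposite genes; circles are line 1, squares line 3, and short bars the mean of a gene's tiles in a line. Gained and lost genes have both lines on one side of 0, whereas the last 5 have circles on one side and squares on the other.

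Homeobox genes of the Nkx families, which pattern embryonic organs, held the highest share of gains among the 34 gene lists examined. Of 14 Nkx genes 8 gained in both lines (57.1%, against 3.69% of all genes), none lost in both and none were opposite. Of all genes 0.649% lost and 1.97% were opposite, so counts of 0 among 14 do not set the list apart. Among all genes with a listed tile 17.7% gained in both, and 61.5% of the 13 listed Nkx genes did. Nkx6-1, a regulator of pancreatic and neural cells, gained 37.7 points over 5 tiles in line 1 and 37.3 over 7 in line 3. Nkx6-3, a stomach regulator with windows at both annotated ends, gained 66.6 and 64.3 points at 1 tile near its higher-numbered end. Nkx2-3, active in gut mesoderm, gained 49.4 and 54.5 points. The median of the 8 gene means was 43.7 points in line 1 and 39.3 in line 3, close to the 40.7 and 39.4 of all 808 gained genes.

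Other developmental factors had gains above the 3.69% of all genes, but closer to the 17.7% of all listed genes when only listed members are counted. The dispersed homeobox list held 19 gained, 4 lost and 8 opposite of 114 genes, the forkhead list 7, 0 and 2 of 44, and the Sox and T-box list 4, 1 and 3 of 35. Of their listed members 20.9, 25 and 14.8% gained in both lines. Foxl2 gained at 7 tiles in each line, averaging 45.0 and 50.8 points, and Foxa2, an endoderm regulator, at 1 tile (61.6) and 4 tiles (48.8). Tbx1, a regulator of the pharynx and heart, gained 51.8 and 38.4 points. Isl2, a motor neuron factor, gained 85.8 and 46.6 points without a shared tile. Pdx1, the pancreatic and duodenal homeobox gene, was among the 4 lost homeobox genes with 1 tile in each line, at -32.8 and -100 points; it was picked out after its values were seen. The bHLH list had 5 gained, 1 lost and 6 opposite genes of 43, and 16.1% of its listed members gained. The opposite ones were 14.0% of the list, against 1.97% of all genes. Hand2, a heart and limb regulator, gained 46.8 and 40.4 points, and Myod1, the muscle determination gene, was the 1 that lost, at -36.0 and -49.2.

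In the Hox clusters gained tiles outnumbered lost ones everywhere except in Hoxb of line 3. Line 1 had 41 gained and 7 lost tiles in Hoxa, 20 and 0 in Hoxb, 17 and 1 in Hoxc and 27 and 9 in Hoxd. Line 3 had 31 and 2 in Hoxa, 7 and 14 in Hoxb, 19 and 10 in Hoxc and 45 and 15 in Hoxd. The balance of Hoxb therefore differed in sign between the lines, while that of the other clusters did not. Of 39 Hox genes 8 gained in both lines (20.5%, against 3.69% of all genes), none lost in both and 5 were opposite (12.8%, against 1.97%). Among the 28 listed Hox genes 28.6% gained, against 17.7% of all listed genes. Hoxd9 gained 56.02 points over 6 tiles in line 1 and 50.0 over 7 in line 3, and Hoxd10 51.1 over 3 and 61.2 over 4.

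Hoxb2, a hindbrain patterning gene that was singled out after its values were seen, was the extreme case. Its 6 tiles of line 1 were at 39.8, 34.9, 78.3, 54.99, 26.1 and 37.0 points, and the same 6 tiles of line 3 at -86.4, -100, -78.6, -80.8, -97.4 and -89.1. Line 3 had 2 further tiles there, at -95.1 and -67.2. At all 6 shared tiles the sizes sum to more than 100 points, so the empty-vector libraries of the lines differed at every one, by at least 23.5 points and at chr11:96352601-96352800 by at least 56.9. The control of line 3 was at least 67.2% methylated at each listed tile, whereas the control of line 1 was at most 21.7% methylated at that one tile.

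**Figure D4:**
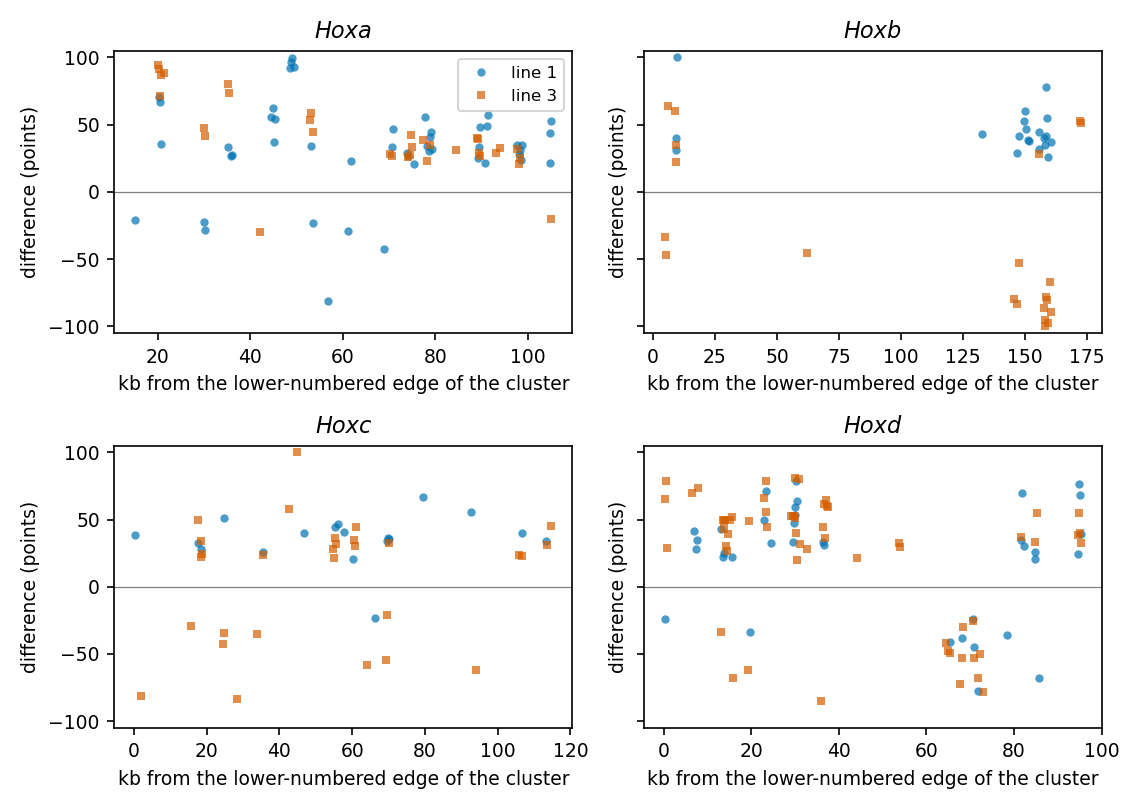
Methylation difference (percentage points) of every listed tile in the 4 Hox clusters against distance in kb from the lower-numbered edge of the cluster; circles are line 1 and squares line 3. Hoxa is mostly above 0 in both lines, and around Hoxb2, in the right part of Hoxb, circles lie above 0 and squares below -50, while the squares farthest right lie above 0.

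Of 34 regulators of intestinal cell fate 6 gained in both lines (17.6%, against 3.69% of all genes), 1 lost and 2 were opposite. Besides Hnf4a and Foxa2 these included Atoh1, the factor that specifies secretory cells, with 1 tile at 68.6 and 59.1 points, and Cdx1, an intestinal identity gene. Cdx1 gained 62.8 points over 4 tiles in line 1 and 54.5 over 5 in line 3, at tiles that also lie in the window of Gm52351. Cdx2, its paralogue, had no listed tile within 1 kb of the gene in either line. Gfi1, a secretory lineage factor singled out after its values were seen, had 1 tile at 77.4 points in line 1 and 3 averaging -62.6 in line 3. These were different tiles in the lines. Prdm1, a repressor of adult intestinal genes in the fetal gut, was the 1 lost gene, at -28.3 and -31.1 points.

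Of 25 intestinal stem cell genes 1 gained in both lines (4%, near the 3.69% of all genes) and none lost. It was Prom1, a surface protein of crypt cells, at 89.7 and 67.4 points on 1 tile. Lgr5, the stem cell receptor, had 2 gained tiles within the gene in line 1 (mean 50.7 points) and 1 in line 3 (81.2), outside its start window. Among 30 genes of differentiated colon cells 3 gained in both (10%) and none lost. These were Ms4a12, expressed in surface colonocytes, at 63.0 and 65.8 points, the sodium-proton exchanger Slc9a3 at 35.6 and 36.4, and Chgb, an enteroendocrine granule gene, at 35.6 and 33.0. The tables measure DNA methylation, so the labelled cell type could not be checked by expression. Of 30 genes that define mesenchymal, immune, endothelial and neural cells, 1 gained in both lines (3.33%, near the share of all genes) and none lost in both. It was Kdr, at 40.3 and 21.2 points.

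Negative regulators of Wnt signalling, the pathway that Wnt3a and R-spondin in the culture medium feed, gained at 4 of 44 genes, lost at none and were opposite at 4. The gained ones were 9.09% of the list against 3.69% of all genes, and 15.4% of its listed members against 17.7% of all listed genes. The opposite ones were also 9.09% of the list, against 1.97% of all genes. Sox7 gained 37.7 points over 5 tiles and 40.1 over 4, Sox17 33.7 and 30.2 over 2 tiles each, Shisa3 30.9 and 34.9 over 4 tiles each, and Dkk1, a secreted inhibitor, 32.8 at 1 tile and 41.1 over 3. All 4 were below the median size of gained genes in line 1. Over the whole gene and 1 kb on either side Sox17 held 7 gained tiles in line 1 and 9 in line 3 and no lost one. Sfrp4, a secreted Wnt inhibitor looked up whatever it showed, had 1 tile in line 3 at -65.4 points and none in line 1. Of 42 Wnt ligand and receptor genes 6 gained (14.3%, and 22.2% of listed members) and 2 lost (4.76%, against 0.649% of all genes). Another 5 were opposite in the lines (11.9%, against 1.97% of all genes). Fzd8, a receptor, gained 38.6 points over 2 tiles and 54.0 over 7, while Ror2, the receptor of the Wnt5a branch, lost at 4 tiles (mean -69.7) and 5 tiles (-39.7).

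Of 65 genes of the MAPK cascade, in which Braf acts, 3 were called in both lines, against 1382 of all 21892 genes. Among them 1 gained, 1 lost and 1 was opposite. So 1.54% gained against 3.69% of all genes, and 1.54% lost against 0.649%. These shares rest on 1 gene each and do not set the list apart from all genes. Braf itself had no listed tile within 1 kb of the gene. The growth factor receptor Erbb4 gained 51.2 points over 4 tiles and 26.6 over 3. Spry4, a feedback inhibitor of the cascade, lost, at -59.1 points over 3 tiles and -25.6 at 1. Of 30 cell cycle inhibitors and senescence genes 4 gained (13.3%) and 1 lost (3.33%). Among their 11 listed members 36.4% gained, against 17.7% of all listed genes. Cdkn2a, which encodes the inhibitors p16 and p19 from separate starts, was the 1 that lost. Its tiles lay at chr4:89281801-89282200 in line 1, at -70.3 and -51.9 points, and at chr4:89294001-89294400 in line 3, at -65.0 and -28.8, so the lines shared no tile and differed at different starts. Over the whole gene line 3 also held 2 gained tiles.

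Of 55 mouse counterparts of methylator phenotype and colorectal marker genes, 9 gained in both lines (16.4%, against 3.69% of all genes). Another 2 lost (3.64%, against 0.649%) and 4 were opposite (7.27%, against 1.97%). A listed tile was held by 70.9% of them, against 20.8% of all genes. Of these 39 listed members 23.1% gained, against 17.7% of all listed genes. Beside Cdo1 the 9 gained genes included Ppp1r3c, a glycogen regulator, at 44.3 points over 2 tiles and 44.2 over 3, and Eya4 at 46.7 over 4 and 42.3 over 3. The list was put together with earlier results of these data known and is no independent evidence of its direction. In the Notch list 5 of 33 gained (15.2%, against 3.69% of all genes) and 2 lost (6.06% against 0.649%). Among its 16 listed members 31.25% gained, against 17.7% of all listed genes. The ligand Dll1 gained 42.4 and 42.1 points, and the receptor Notch3 lost, at -29.8 and -30.3, without a shared tile. In the TGF-beta and BMP list 3 of 80 gained (3.75%), near the background, and 1 lost. The BMP antagonists Nbl1 and Chrd gained 41.7 and 60.5 points and 43.8 and 47.7. Ltbp1, which holds latent TGF-beta in the matrix, lost at -80.7 and -47.3.

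Genes that write, erase or read methylation and chromatin marks were also listed. Tet1, a demethylating enzyme, gained 36.6 points over 5 tiles in line 1 and 25.6 over 2 in line 3, and Uhrf2, which binds modified cytosine, 64.2 and 45.2 over 2 tiles each. These were 2 of 22 such genes (9.09%, against 3.69% of all genes), and 22.2% of the 9 listed members, against 17.7% of all listed genes. Tet3, singled out after its values were seen, was opposite, with 1 tile at -53.8 points in line 1 and 4 averaging 71.0 in line 3. Of 39 Polycomb genes 5 gained in both lines (12.8%) and none lost or were opposite, where 0.649% of all genes lost and 1.97% were opposite. Of the 13 listed Polycomb genes 38.5% gained. L3mbtl1 gained 65.0 and 83.0 points, Asxl3 47.3 and 61.0 over 5 tiles each, Bcor 48.2 and 52.8, and Bcorl1 57.1 and 22.8. Bcor and Bcorl1 lie on the X chromosome, of which a male cell has 1 copy.

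Zeb1, a repressor of epithelial genes, lost in both lines, at -45.4 points over 5 tiles and -75.3 over 4. With Prdm1 and Snai2 it made up 3 lost genes of 21 in the list of Zeb, Snai, Twist and Prdm genes (14.3% against 0.649% of all genes), while 4 gained and 1 was opposite. This was the highest share of losses in any list. Prdm14, a germ cell regulator, gained 66.7 and 50.6 points, and Prdm6 42.3 over 6 tiles and 54.2 over 3.

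Channel and receptor genes of excitable cells had more gains than losses, as did all genes (808 gained and 142 lost). Of 92 potassium channel genes 18 gained in both lines (19.6%, against 3.69% of all genes), none lost and 5 were opposite. Of their listed members 28.6% gained, against 17.7% of all listed genes. Kcnj10 gained 75.4 points over 2 tiles and 79.6 at 1, and Kcnk4, a mechanosensitive channel, 65.0 over 2 and 67.8 over 3. Kcna5 and Kcna6, voltage-gated channels, gained 67.2 and 49.0 points and 54.0 and 48.1. Of 40 calcium and sodium channel genes 8 gained (20%, and 36.4% of listed members), 0 lost and 2 were opposite. Cacna2d3 was at 45.6 points over 5 tiles and 53.4 over 6. Of 47 glutamate and GABA receptor genes 7 gained (14.9%, and 21.9% of listed members) and 1 lost, with Gabrg1 at 80.6 and 73.6 points on 1 tile. Axon guidance and Eph genes counted 7 gained, 0 lost and 4 opposite of 72, and 17.5% of their listed members gained, near the 17.7% of all listed genes.

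The remaining lists ranged from under to above the background. Zfp zinc finger genes gained at 15 of 397 (3.78%), lost at 1 and were opposite at 9, and Zfp422, whose sequence is shown above, led them with 68.6 points over 5 tiles and 57.7 over 4. Clustered protocadherins gained at 2 of 57, ribosomal protein genes at 2 of 76, and germline and keratin genes at 0 of 51 and 0 of 49. Of 1106 olfactory receptor genes, which have few CpG sites and few listed tiles (16 genes), none gained and 1 lost. Solute carriers gained at 26 of 369 (7.05%), with 1 lost and 12 opposite, cadherin, claudin and junction genes at 4 of 63 with none lost, and collagens at 3 of 44 with 1 lost. Imprinted genes, above the background, counted 9 gained (15.3%), 1 lost and 4 opposite of 59. Dio3 gained 48.6 and 44.2 points over 3 tiles each, and Igf2, singled out after its values were seen, was opposite at 38.9 over 3 tiles and -42.4 over 5. The lines shared no Igf2 tile. The lists differ in how many members had any listed tile, from 1.45% of olfactory receptor genes to 92.9% of Nkx genes, and 20.8% of all genes did.

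**Figure D5:**
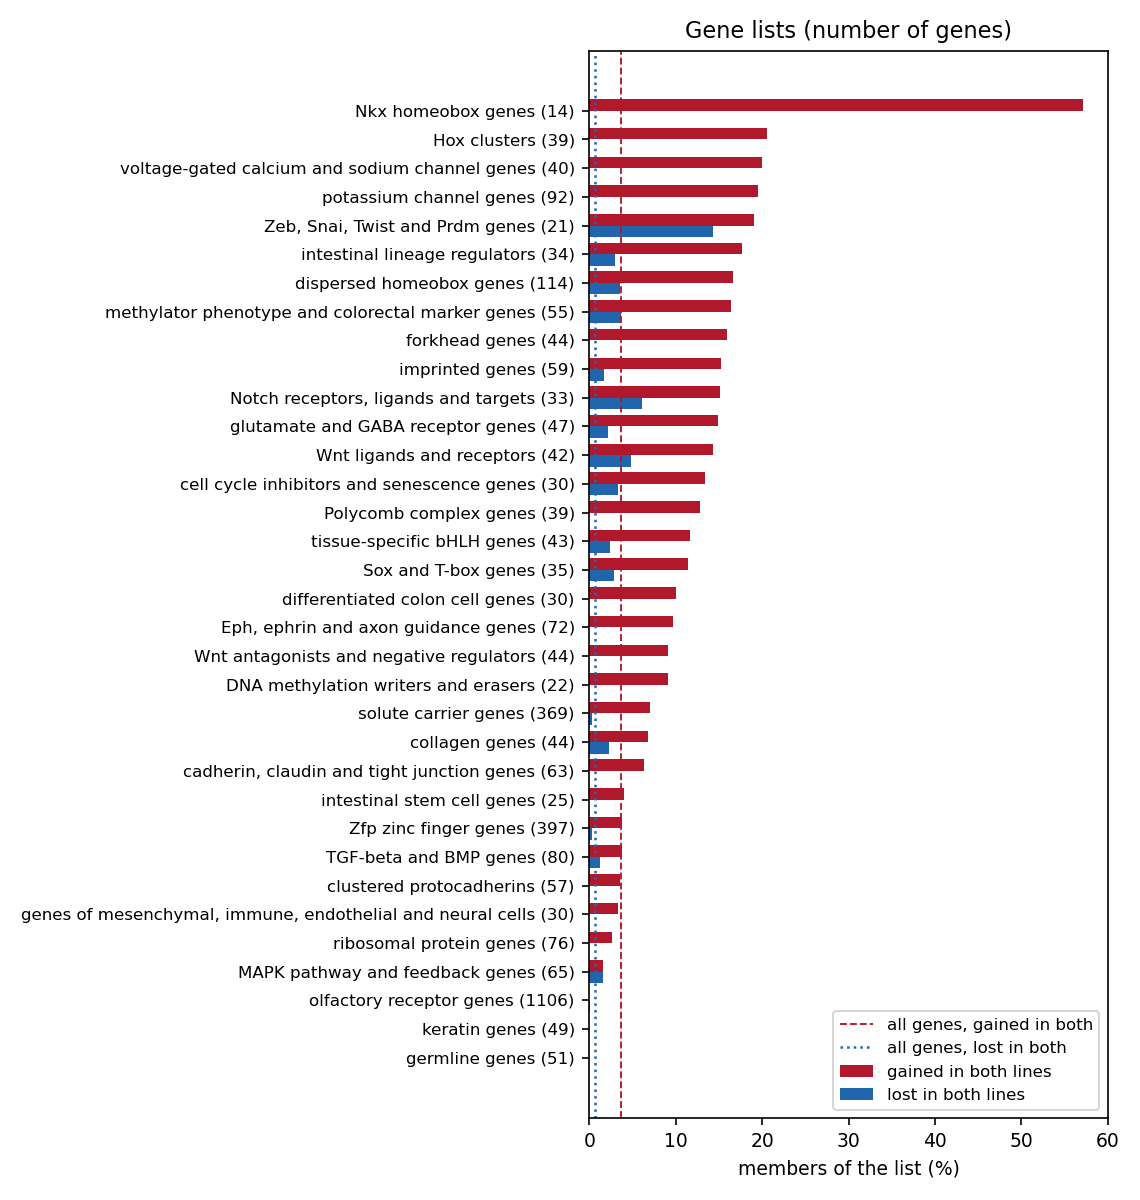
Share of each gene list called gained (red) or lost (blue) in both lines, in % of the list's genes, with the number of genes in parentheses; dashed and dotted lines mark all 21892 genes (3.69 and 0.649%). Nkx genes reach 57.1%, and the list of Zeb, Snai, Twist and Prdm genes has the longest blue bar, at 14.3%.

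The series also compares empty-vector organoids after long culture (12 months in line 1, 14 in line 3) with those at 2 months, with no library in common. The library titled 14 months carries a culture time tag of 2 months, and its title was followed, so every long culture value of line 3 rests on that title. The lines were ordered the other way there: 40.9% of 8263 tiles gained in line 1 and 71.9% of 21524 in line 3, against 67.5 and 40.4% with BrafV600E. Of the BrafV600E tiles of line 1, 15.6% were also listed for long culture, 48.9% of them in the same direction; in line 3 these shares were 23.3 and 51.9%. Where line 3 lost with BrafV600E and was also listed for long culture, 2419 tiles gained there and 833 lost, and in line 1 the counts were 291 and 318. The tiles gained with BrafV600E were similar: 2783 gained and 929 lost with long culture in line 3, and 847 and 928 in line 1. Within each line the balance was alike for tiles lost and tiles gained with BrafV600E, so it is not particular to the losses. In line 3 it lay near that of all long culture tiles, of which 71.9% gained. In line 1 both sets held relatively more gains than all long culture tiles, of which 40.9% gained. Of the 808 genes gained with BrafV600E in both lines 180 also gained in both with long culture (22.3% of these and 25.5% of the 706 gained there), and 7 lost. Of the 142 lost genes, 26 gained in both lines with long culture (18.3%) and 5 lost (3.52%). Genes lost with BrafV600E therefore gained with long culture nearly as often as genes gained with it. Over all 21892 genes 706 gained and 70 lost in both lines with long culture. With 2 lines in each comparison the smallest two-sided p possible is 0.333, so no difference between the comparisons was tested.

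Individual genes went apart between the comparisons, and those named here were picked after their values were seen. Cdo1, highest with BrafV600E, lost methylation with long culture, at -50.3 points on 1 tile in line 1 and -36.7 over 4 in line 3. Hoxd9 gained 56.02 and 50.0 points with BrafV600E and was at -29.0 and -25.4 with long culture. Among genes lost with BrafV600E, Zeb1 gained 45.2 and 57.5 points with long culture, Pcdh7, a protocadherin, 31.4 and 60.3 after -43.4 and -63.5 with BrafV600E, and Slitrk5, a neural membrane protein gene, 32.8 and 45.0 after -41.6 and -71.8. Ranbp17 gained 25.2 and 32.8 points there. Of the 14 Nkx genes 8 gained in both lines with long culture, none lost and 2 were opposite, against 8, 0 and 0 with BrafV600E. Of the dispersed homeobox genes 35 gained and none lost with long culture, against 19 and 4 with BrafV600E.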

How the data were processed

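The assay was reduced representation bisulfite sequencing of organoid DNA, with single-end reads, per the labels' protocols. The submitters' processing notes name Bismark 0.14.3, methylKit 1.7.4, Trim Galore 0.4.4 and FastQC 0.11.7 with the build GRCm38. How reads were trimmed and which coverage a tile needed is not given in the sources used here. Per the file headers, the authors deposited for each 200 bp tile its p-value, its q-value and the methylation difference, a score in percentage points that can be negative. Each table sets 1 library against 1 library, so these q-values describe libraries and not conditions. The values show that only tiles of at least 20 points with q of at most 0.01 are listed. Counts were not used here, so depth is unknown and intervals on shares cover counting error only.

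Tiles were matched to RefSeq genes and promoters of GRCm38.p6 with Python 3.11.15, pandas 2.3.3, numpy 2.4.6 and scipy 1.17.1, and no test across genes was run. A tile lay in a window if it overlapped it; a gene's value is the mean of its tiles' deposited differences. The gene calls were tested on simulated data. The 34 lists hold 3281 genes, 76 of them in several lists, and 517 of 526 symbols given by name were matched. The members and lists were chosen with earlier results of these data known. Named genes are the 12 largest gains with at least 2 tiles in each line, the 10 largest losses with a shared tile, the 6 largest opposite genes with at least 2 tiles in each line, and up to 4 members of each list, ranked by the smaller line mean; Cdkn2a, Sfrp4, Sox17, Cdx1, Cdx2, Braf and Lgr5 were looked up, and others are marked as picked after their values were seen. Alternatives were 40 points, q under 0.001, autosomes only, other merging distances, a window of 2 kb, at least 2 tiles per line, and either line alone; windows at both ends of every gene were added after seeing the data. Some genes that the rule names are not reported here.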

Additional observations from a re-analysis of the deposited data

How the results depend on the processing

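Directions that did not hold were few. The pooled share of gained tiles, 49.5%, describes neither line: it was 47.8% at 40 points or more, 52.2% at a q-value under 0.001, where it crosses an even split, and 40.4 to 67.5% with either line left out. Within lines, 40 points or more gave 66.6% in line 1 and 38.7% in line 3, and q under 0.001 gave 71.4 and 42.9%. The same-direction share of tiles listed in both lines, 73.9%, was 81.6% at 40 points or more, 76.8% at q under 0.001, and 69.3 and 67.3% after merging within 500 and 2000 bp. By position, 40 points or more gave 81.1% gained at gene starts and 65.0% elsewhere in genes in line 1. A q-value under 0.001 gave 70.5% elsewhere in genes, 66.6% within 50 kb and 51.8% beyond 50 kb in line 1, the last turning from 49.7%; in line 3 it gave 65.9% at starts, 40.4% elsewhere in genes and 39.4% within 50 kb. The order from starts to distant tiles was the same under each of these settings. Genes gained in both lines, 808, numbered 380 at 40 points or more, 294 with at least 2 tiles per line and 1896 to 1993 by 1 line alone; genes lost, 142, numbered 61, 25 and 691 to 1237. Long lost runs of line 3 rose from 25 to 38 with merging within 1000 bp.

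Among the lists, gains no longer exceeded losses for cell cycle genes at 40 points or more (0 gained) and with at least 2 tiles (0 gained), and for bHLH genes (8 gained, 9 lost) and protocadherins (8 gained, 13 lost) without line 1, against 22 and 6 gained without line 3; without line 1, TGF-beta and BMP genes (13 gained, 13 lost) and collagens (7 gained, 7 lost) were even; olfactory receptor genes had 2 gained and 1 lost without line 3. Fewer tiles enter under the stricter settings; no other cause was tested. No paired analysis was possible because the deposited tables already compare the libraries within each line.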
